A study of Mus musculus with 6 samples.

Results

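The cytosolic sulfotransferases were followed through the mouse liver arrays by taking every probe whose array gene name is Sult followed by a digit. This rule found 14 of the 41174 probes, for 11 genes: Sult1a1, Sult1b1 (2 probes), Sult1c1, Sult1c2, Sult1d1, Sult1e1, Sult2a2 (2 probes), Sult2b1, Sult3a1, Sult4a1 (2 probes) and Sult5a1. Each probe was printed as 1 spot and was kept apart, and the accession of all 14 probes matched the same symbol in the RefSeq gene table. That table holds 22 symbols of the family, so the arrays cover a part of it.

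Liver RNA came from male 129/Sv mice, 6 to 8 weeks old at the start. The alcohol mice had free access to a liquid diet with 4% ethanol and the control mice an isocaloric diet with maltose dextran, after a run-in on the control diet for all. At each of 1, 2 and 4 months the RNA of 6 mice per diet was combined into an alcohol pool and a control pool. The 2 pools of a month shared 2 two-color arrays, with the dyes exchanged. The array on which the alcohol pool carried Cy5 is called the Cy5 array, and the other the Cy3 array. The 2 arrays of a month hold the same RNA, so their SD (n = 2 arrays) is technical, the animals' own spread is not measured, and no test within a month is possible. The arrays of 1 month were on another slide than those of 2 and 4 months, and slide and treatment length cannot be told apart for that contrast. Over all probes the ratios of a pair correlated at r = 0.17 at 1 month but at -0.29 and -0.27 at 2 and 4 months, so that many later ratios had opposite signs on the 2 arrays. The share of spots well above background, which is the scanner software's flag, was 73.3% to 90.3% per channel. Of the 8 hepatocyte markers, all were well above background in both pools at each month. None passed 2-fold on both arrays, where 0.0503% to 0.211% of all probes did, per month and direction.

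Cytosolic sulfotransferases move a sulfonate group from the donor 3'-phosphoadenosine 5'-phosphosulfate (PAPS) onto hydroxyl or amino groups of small molecules, which makes most of them more soluble and easier to excrete. In liver they form a conjugation route beside the UDP-glucuronosyltransferases, for phenols, catecholamines, oestrogens, hydroxysteroids, bile acids and many drugs, and a small part of ingested ethanol itself leaves the body as ethyl sulfate. Several members of the family are made in different amounts by male and female rodent liver, and Sult3a1, an amine sulfotransferase, is one of the female-predominant genes of mouse liver.

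The promoters of 4 genes are shown because the results turn on them. Sult3a1 was the only member past 2-fold, while Sult1b1, Sult1d1 and Sult1e1 lie next to each other in the RefSeq table and had ratios that ran in different directions. The sequences are the 250 bases before the start given by RefSeq on GRCm38.p6, read along the gene's strand. They are at chr10:33857472-33857721 (plus strand) for Sult3a1, chr5:87538196-87538445 (minus strand) for Sult1b1, chr5:87569007-87569256 (minus strand) for Sult1d1 and chr5:87591612-87591861 (minus strand) for Sult1e1. Capitals mark matches on either strand to TATAAA (the TATA box), AGGTCA (a motif that many nuclear receptors bind) or TTCNNNGAA (the core of a STAT element).
Sult3a1: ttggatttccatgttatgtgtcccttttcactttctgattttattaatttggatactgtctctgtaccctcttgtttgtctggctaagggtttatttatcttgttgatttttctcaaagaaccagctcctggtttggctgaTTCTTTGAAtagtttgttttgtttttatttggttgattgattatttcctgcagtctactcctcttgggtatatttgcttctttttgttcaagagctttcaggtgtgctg
Sult1b1: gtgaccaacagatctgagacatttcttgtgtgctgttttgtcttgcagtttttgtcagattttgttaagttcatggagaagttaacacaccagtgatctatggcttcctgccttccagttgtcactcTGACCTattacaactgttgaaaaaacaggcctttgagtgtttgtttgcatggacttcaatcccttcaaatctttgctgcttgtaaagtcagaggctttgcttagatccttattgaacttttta
Sult1d1: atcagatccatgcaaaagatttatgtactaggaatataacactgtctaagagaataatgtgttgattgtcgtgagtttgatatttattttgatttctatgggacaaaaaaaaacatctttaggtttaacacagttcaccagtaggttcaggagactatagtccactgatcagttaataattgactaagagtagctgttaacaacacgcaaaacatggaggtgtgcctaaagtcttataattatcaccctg
Sult1e1: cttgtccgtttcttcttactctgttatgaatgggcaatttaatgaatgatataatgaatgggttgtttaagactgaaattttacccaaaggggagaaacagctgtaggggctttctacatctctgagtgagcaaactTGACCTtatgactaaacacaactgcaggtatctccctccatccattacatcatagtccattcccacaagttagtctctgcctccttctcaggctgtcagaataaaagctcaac
The Sult3a1 window held TTCNNNGAA, from 109 to 101 bases before the start. The windows of Sult1b1 and Sult1e1 each held AGGTCA on the opposite strand, from 123 to 118 and from 113 to 108 bases before the start, and the window of Sult1d1 held none of the 3 motifs. Of 32851 RefSeq windows of the same length, 12.4% held TATAAA, 14% AGGTCA and 7.02% TTCNNNGAA. Of the 20 windows of 17 family symbols, 7, 3 and 1 did. For Sult3a1 the start used lies inside the span of the gene record, downstream of its outermost start. A match shows the letters only, and binding was not measured.

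Sult3a1 had the largest ratio of the family, at 4 months. Its log2 ratio of alcohol over control was -0.45 on the Cy5 array and -0.49 on the Cy3 array after 1 month, -0.47 and 0.18 after 2, and 2.37 and 1.91 after 4. Both arrays of 1 month were below 0, the arrays of 2 months lay on both sides of it, and both arrays of 4 months were far above it. The monthly means were -0.47 ± 0.024, -0.14 ± 0.46 and 2.14 ± 0.32 (SD, n = 2 arrays), so that the alcohol pool held 0.722, 0.905 and 4.41 times the control signal. Sult3a2, a close paralog, is the nearest family member in the RefSeq table, and whether the probe also reads that gene was not tested.

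Counted at 2-fold on both arrays of a month, 1 of 14 Sult probes, that of Sult3a1, was raised at 4 months, where 0.211% of all 34139 measured probes were. None of 14 was lowered at 4 months, where 0.167% of all probes were. At 2 months none of 14 was raised or lowered, against 0.0812% and 0.0511% of all probes. At 1 month none of 13 was raised or lowered, against 0.117% and 0.0503%. The fourteenth probe, A_51_P406796 of Sult4a1, lacked a signal well above background at 1 month in both pools. The other 13 probes were well above background in both pools on every array, A_51_P406796 was so at 2 and 4 months, and no Sult probe was saturated. At 1.5-fold on both arrays the count was again 1 of 14 raised at 4 months, Sult3a1, against 0.598% of all probes, and none of 14 was lowered, against 0.633%. In the earlier months no Sult probe passed 1.5-fold on both arrays, where 0.325% and 0.304% of all probes were raised and 0.255% and 0.319% lowered.

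**Figure D1:**
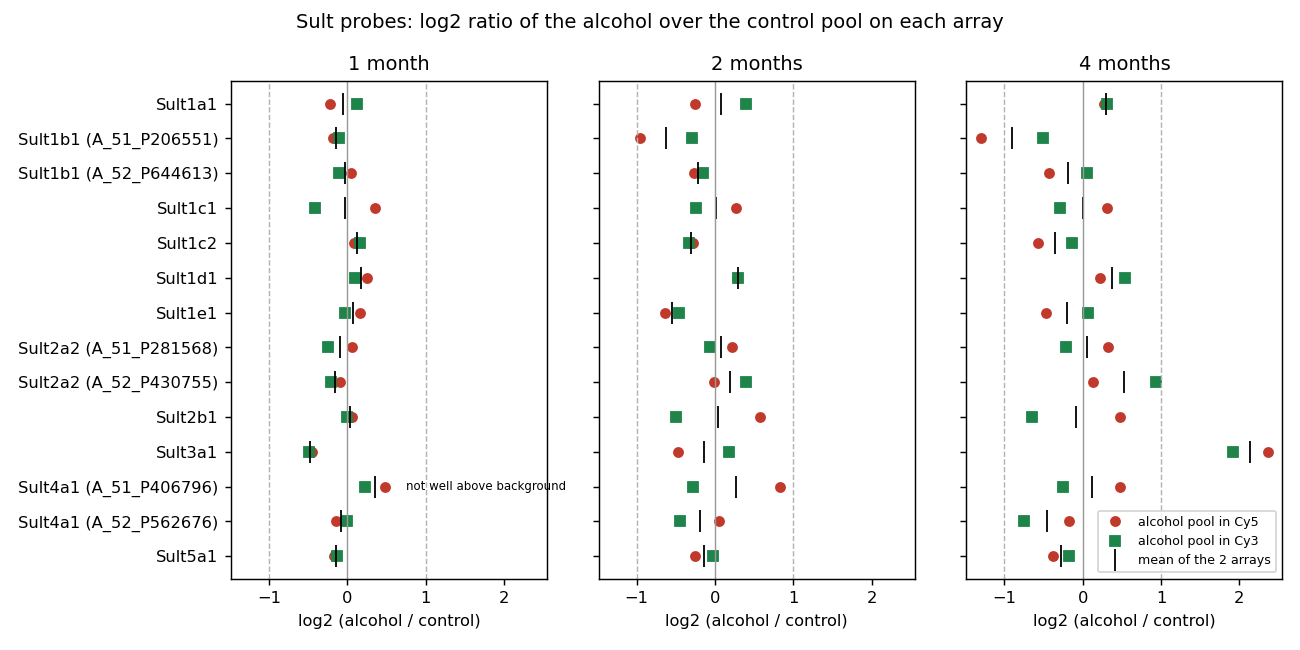
Log2 ratio of the alcohol over the control pool (horizontal axis, same scale in each panel) for the 14 Sult probes (rows) at 1, 2 and 4 months. Circles are the Cy5 arrays, squares the Cy3 arrays, short vertical lines the mean of the pair, and dashed lines 2-fold; Sult3a1 at 4 months is the only probe with both arrays past a dashed line, at 2.37 and 1.91.

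The levels of single pools show where the Sult3a1 ratio came from. A level here is the log2 processed signal of a channel minus the 75th percentile of that channel, and it is compared only within a probe. The Sult3a1 level of the alcohol pool was -1.79 and -1.71 on the 2 arrays of 1 month, -2.74 and -2.75 after 2, and 0.39 and 0.49 after 4. The level of the control pool was -1.33 and -1.23, then -2.27 and -2.92, then -1.98 and -1.42. The levels come from the same signals as the ratios, so they are no separate support. On them the alcohol pool of 4 months stood above all other pools. The share of all probes that separate in this way was not computed. From 2 to 4 months the alcohol pool's level rose by 3.18 ± 0.079 (9.09-fold), and the control pool's differed by 0.89 ± 0.86. With the arrays scaled to each other by quantiles instead (loess, then Aquantile), the alcohol pool's rise was 7.13-fold and the control pool's difference 1.55-fold. Among all probes the level of the alcohol pool rose at least 2-fold on both arrays between these months for 0.993% and fell for 1.07%. Among the Sult probes 2 of 14 rose, Sult3a1 and Sult1e1, and none fell. In the control pool none of 14 rose, against 0.777%, and none fell, against 0.95%.

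Sult1e1, the oestrogen sulfotransferase, had a higher level at each later month in both diets. The control pool's level was -1.95 and -1.77 after 1 month, -0.49 and -0.60 after 2, and 0.60 and 0.03 after 4. The alcohol pool's level was -1.78 and -1.79, then -1.13 and -1.06, then 0.14 and 0.10. The levels of the 3 months, each of 2 technical arrays, did not overlap within either diet. The share of all probes that separate in this way was not computed, and the arrays of 1 month were on another slide. From 1 to 2 months it rose at least 2-fold on both arrays in the control pool (2.49-fold), as 8.02% of all probes did, and in the alcohol pool it did not (1.61-fold), where 7.4% did. With quantile scaling the mean rise was 3.92-fold in the control pool and 2.56-fold in the alcohol pool, so which side of 2-fold the alcohol pool lies on depends on the scaling. From 1 to 4 months the level rose 4.53-fold in the control pool and 3.76-fold in the alcohol pool, or 6.62-fold and 5.36-fold with quantile scaling. Over these months 7.68% of all probes rose at least 2-fold on both arrays in the control pool and 7.55% in the alcohol pool, and this contrast also crosses slides. From 2 to 4 months, on 1 slide, the rise was 2.33-fold in the alcohol pool and 1.82-fold in the control pool, where only 1 of its 2 arrays reached 2-fold. The alcohol over control ratio of Sult1e1 stayed under 2-fold throughout. It was 0.16 and -0.03 after 1 month, -0.64 and -0.46 after 2, and -0.47 and 0.07 after 4, with means of 0.07 ± 0.14, -0.55 ± 0.13 and -0.20 ± 0.38 (SD, n = 2 arrays). Both arrays were below 0 at 2 months only.

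**Figure D2:**
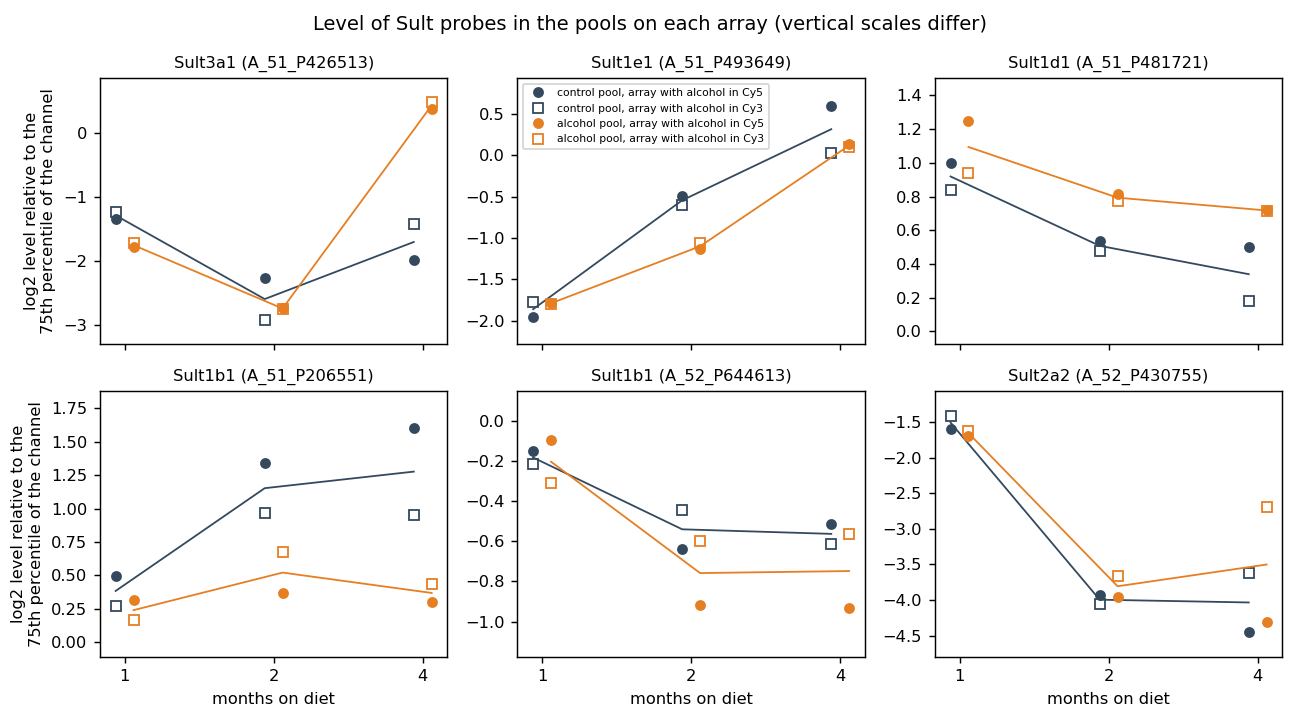
Log2 level relative to the channel's 75th percentile (vertical axes, scales differ) against months on the diet for 6 Sult probes. Points are single arrays (filled, Cy5 arrays; open, Cy3 arrays), lines join the means of the 2 arrays; in Sult3a1 the alcohol pool stands at 0.39 and 0.49 at 4 months, above all control values, while Sult1e1 climbs in both pools.

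Sult1b1, which sulfonates phenols and thyroid hormones, was lower in the alcohol pool on one of its probes and near equal on the other. Probe A_51_P206551 gave -0.18 and -0.11 after 1 month, -0.96 and -0.29 after 2, and -1.30 and -0.51 after 4, with means of -0.15 ± 0.052, -0.63 ± 0.48 and -0.91 ± 0.56 (SD, n = 2 arrays). All 6 arrays were below 0, and 1 of them, the Cy5 array of 4 months, was past 2-fold. Probe A_52_P644613 gave 0.05 and -0.10, then -0.27 and -0.15, then -0.43 and 0.05, with means of -0.02, -0.21 and -0.19. The 2 probes of the gene disagree in size at 2 and 4 months.

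The levels of single pools also differed between the 2 Sult1b1 probes, and for A_51_P206551 the control level was higher at the later months. The control level was 0.50 and 0.27 after 1 month, 1.34 and 0.96 after 2, and 1.60 and 0.95 after 4. The alcohol level was 0.32 and 0.16, then 0.37 and 0.67, then 0.30 and 0.43. From 1 to 4 months the mean difference was 0.89 ± 0.30 in the control pool and 0.13 ± 0.20 in the alcohol pool, or 0.60 and -0.12 with quantile scaling. Contrasts of 1 month with a later month cross slides. From 1 to 2 months the difference was 0.77 ± 0.10 in the control and 0.28 ± 0.32 in the alcohol pool. From 2 to 4 months, on 1 slide, it was 0.12 ± 0.20 and -0.15 ± 0.12. For A_52_P644613 the level was lower at 4 than at 1 month in both pools, by -0.38 ± 0.020 in the control and -0.55 ± 0.42 in the alcohol pool, or -0.15 and -0.32 with quantile scaling.

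Sult1d1, a sulfotransferase of catecholamines, was the only Sult probe above 0 on all 6 arrays, with ratios of 0.25 and 0.10 after 1 month, 0.28 and 0.30 after 2, and 0.22 and 0.54 after 4. The means were 0.17 ± 0.11, 0.29 ± 0.013 and 0.38 ± 0.22 (SD, n = 2 arrays), a difference of 1.3-fold at most. Sult5a1, whose substrates are little known, was the second probe beside Sult1b1 A_51_P206551 below 0 on all 6 arrays, from -0.38 to -0.03, with means of -0.15, -0.14 and -0.28. Among all probes measured at every month, 1.63% were above 0 on all 6 arrays and 2.71% below, and among the 13 Sult probes these were 1 and 2.

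The remaining members stayed within 2-fold on the mean of every month. Sult1a1, the main phenol sulfotransferase, gave -0.23 and 0.13 after 1 month, -0.25 and 0.40 after 2, and 0.27 and 0.31 after 4, so that its arrays shared a sign only at 4 months (1.22-fold). Sult1c2 was slightly above 0 at 1 month (0.08 and 0.17) and below 0 at 2 months (-0.28 and -0.33) and 4 months (-0.57 and -0.14). Sult1c1 had monthly means of -0.03, 0.01 and 0.01.

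The 2 probes of Sult2a2, a hydroxysteroid and bile acid sulfotransferase, differed at 4 months. Probe A_52_P430755 gave -0.10 and -0.21 after 1 month, -0.01 and 0.40 after 2, and 0.13 and 0.93 after 4, where the mean was 0.53 ± 0.56. Probe A_51_P281568 had opposite signs on the 2 arrays of every month, with means of -0.09, 0.07 and 0.06. Genes of the Sult2a group are close in sequence, and whether these probes also read other members was not tested. The levels of both probes fell at least 2-fold from 1 to 2 months in both pools, as 18.7% of all probes did in the alcohol pool and 19% in the control pool. In the control pool the fall was 2.76-fold for A_51_P281568 and 5.61-fold for A_52_P430755. With quantile scaling A_51_P281568 no longer passed 2-fold (log2 differences of -0.17 in the alcohol and -0.30 in the control pool), while A_52_P430755 still fell by 1.29 and 1.55 on the log2 scale. The median level of all probes measured at every month was also lower on the second slide, at -1.04 to -0.97 against -0.75 to -0.74 at 1 month.

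Sult2b1, a sulfotransferase of cholesterol and pregnenolone, and Sult4a1, a brain-enriched member with no settled substrate, completed the family. Sult2b1 had means of 0.03, 0.04 and -0.09. Sult4a1 A_52_P562676 had means of -0.07, -0.20 and -0.46, and at 4 months its arrays gave -0.17 and -0.75. Sult4a1 A_51_P406796 had means of 0.27 and 0.11 at 2 and 4 months, with opposite signs on the 2 arrays of each.

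Several of these small ratios changed sign with the dye. Sult1c1 gave 0.35, 0.27 and 0.31 on the 3 Cy5 arrays and -0.41, -0.25 and -0.30 on the 3 Cy3 arrays, and Sult2b1 gave 0.57 and 0.48 on the Cy5 arrays of 2 and 4 months and -0.49 and -0.65 on the Cy3 arrays. For these 2 genes a single array would show a difference of either direction. Opposite signs were found for 6 of 13 Sult probes at 1 month, 8 of 14 at 2 months and 6 of 14 at 4 months, against 51.4%, 64.5% and 67.9% of all probes. Probes raised on both arrays at any size were 3, 1 and 4 (23.4%, 17.6% and 14.1% of all probes) and probes lowered on both were 4, 5 and 4 (25.2%, 17.9% and 17.9%). The median log2 ratio of the Sult probes was -0.05, -0.07 and -0.04, and that of all measured probes 0.00, 0.01 and -0.01.

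**Figure D3:**
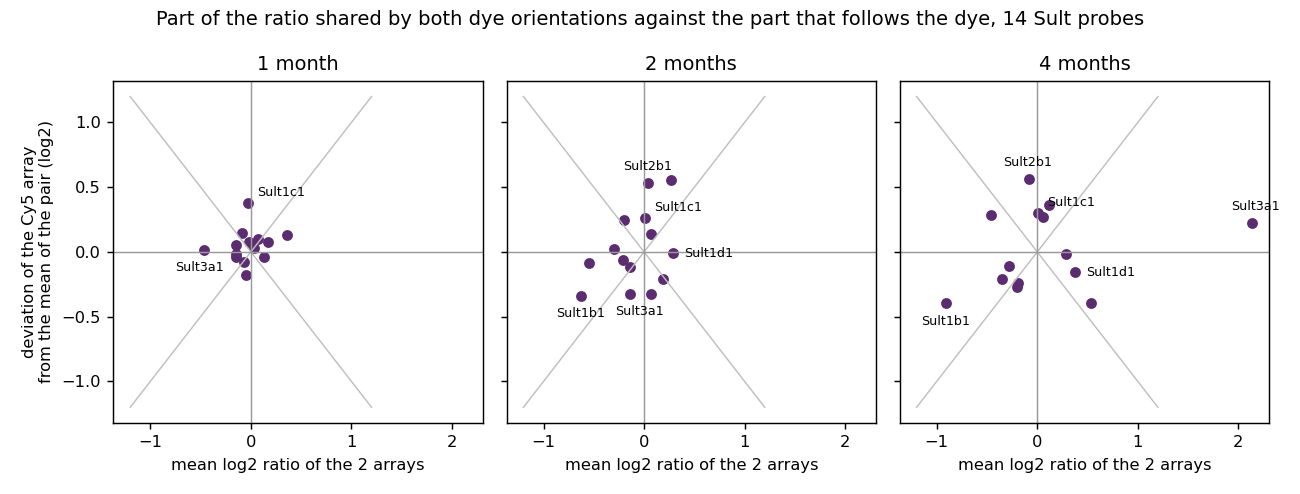
Mean log2 ratio of the pair (horizontal axis) against the deviation of the Cy5 array from that mean (vertical axis, log2) for the 14 Sult probes at each month; the grey diagonals mark where both parts are equal in size. Sult1c1 and Sult2b1 lie near the vertical line, where the ratio follows the dye, and Sult3a1 at 4 months lies far to the right, at a mean of 2.14 with an SD of 0.32.

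Across the 3 months, which are the only independent pairs of pools, limma was fitted to all 34984 probes measured in at least 1 month, with Benjamini-Hochberg adjustment over all of them. For a difference from 0 it called none of the 14 Sult probes at an adjusted p below 0.05, where 0.00572% of all probes (2 probes) were called. At an unadjusted p below 0.05 it counted 5 of 14, against 8.92% of all probes, and an unmoderated test counted 2, against 6.19% of all probes. The limma count was 7 without 1 month (13.2% of all probes), 1 without 2 months (5.71%) and 3 without 4 months (4.96%). The estimates were 0.28 ± 0.068 (SE) for Sult1d1 (limma adjusted p = 0.532), -0.56 ± 0.15 for Sult1b1 A_51_P206551 (0.538) and -0.19 ± 0.063 for Sult5a1 (0.549). The other 2 of the 5 were Sult4a1 A_52_P562676 at -0.24 and Sult4a1 A_51_P406796, whose fit included the 1-month value without a usable signal. Where each array had to show both pools well above background, the count was 4 of 13, against 10.2% of the probes that passed. With no filter on dim probes it was 4 of 14 (7.7%), and with normexp and loess 4 of 14 (9.44%). For a slope over log2 of the months limma called none of 14 and none of all probes (0%), and at an unadjusted p below 0.05 it counted 3 of 14 against 7.67%. That count was 2 with no filter (6.33% of all probes), 4 with normexp and loess (9.09%) and 5 of 13 under the stricter filter (7.76%). The slope of Sult3a1 was 1.30 ± 0.27 per doubling of the treatment length (limma adjusted p = 0.556, and 0.0794 to 0.724 over the alternatives). The others were Sult1b1 A_51_P206551 at -0.38 and Sult2a2 A_52_P430755 at 0.34. A p above the threshold does not show that a gene is unchanged.

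No measured gene that supplies or reverses the reaction passed 2-fold on both arrays of a month. Of 17 genes for the supply of PAPS and the handling of sulfate (16 measured at 1 and 2 months), none was raised or lowered at any month. Of all probes 0.117%, 0.0812% and 0.211% were raised at 1, 2 and 4 months, and 0.0503%, 0.0511% and 0.167% lowered. At such shares a count of 0 says little about these genes. Their median log2 ratio was 0.07, -0.09 and 0.00. Papss2, which makes PAPS, had monthly means of 0.47, -0.19 and 0.21. Csad, which diverts cysteine sulfur to taurine, reached 0.93 ± 0.32 (1.91-fold) at 4 months, after -0.04 and 0.26. Slc26a1, a sulfate transporter, gave -0.11, -0.35 and -0.10. Of 15 genes of sulfatases and their activators, 13 were measured. None was called at any month, against the same low shares of all probes, with Arsg at -0.43, 0.20 and -0.64.

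Of 32 sulfotransferases of the Golgi, which act on sugars, glycolipids and tyrosine in proteins, 29 were measured at 4 months and 1 was raised, against 0.211% of all probes. It was Gal3st1, which makes sulfatide, with 0.69 ± 0.18, 0.39 ± 0.028 and 1.28 ± 0.056 (2.44-fold at 4 months). Of 13 UDP-glucuronosyltransferases, 1 was raised at 1 month, Ugt1a9 at 1.63 ± 0.18 (3.09-fold), against 0.117% of all probes, and none at 2 or 4 months, where Ugt1a9 was at 0.17 and 0.43. The Ugt1a transcripts share their last exons, so the probe may not tell them apart. The medians of this list were 0.04, -0.14 and -0.20.

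Gene lists that often hold Sult genes are given beside Sult3a1. Of 25 genes known to be female-predominant in mouse liver (Sult genes left out), 5 of 22 measured were raised at 1 month, 3 of 24 at 2 months and 8 of 24 at 4 months, while 0, 1 and 1 were lowered, against 0.117%, 0.0812% and 0.211% of all probes raised and 0.0503%, 0.0511% and 0.167% lowered. Their median log2 ratio was 0.75, 0.23 and 0.53. Cyp2b13, of largest mean over the 3 months, was at 3.40, 2.88 and 2.36. At 1 month, when Cyp2b13, Cyp2b9, Cyp4a14, Acot3 and Abcd2 of this list were raised, Sult3a1 was at -0.47. The other measured genes of the list were not called at 1 month either. A shared cause was not tested.

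Of 27 male-predominant genes, 5 of 26 measured were lowered at 1 month, 2 at 2 months and 5 at 4 months, and none was raised, against the same shares of all probes. Hsd3b5, a ketosteroid reductase, was the lowest at -2.93, -2.04 and -4.83. Of 29 targets of the xenobiotic receptors CAR and PXR, 4, 4 and 11 were raised at 1, 2 and 4 months, where 0.117%, 0.0812% and 0.211% of all probes were, and none was lowered, with Cyp2b10 at 3.27, 2.77 and 4.03. This list shares 5 genes with the female-predominant list, Cyp2a4, Cyp2b13, Cyp2b9, Cyp3a41a and Cyp3a44. All 5 were raised at 4 months, so the raised counts of the 2 lists are not separate results. Of the Sult probes, which some of these lists would hold, Sult3a1 at 4 months is the only one past 2-fold on both arrays.

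The 4 named probes nearest to Sult3a1 over the 6 arrays, by the root mean square difference of their log2 ratios among 18593 candidates, were Try5 (0.293), Cpb1 (0.313), 2210010C04Rik (0.450) and Prss3 (0.507). Each of the 4 had both arrays of 4 months between 1.30 and 2.56. Try5 and Prss3 are trypsins, and Cpb1 is a pancreatic carboxypeptidase.

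Markers of pancreas acinar cells were read as a whole list of 10 genes. At 4 months 2 of 10 were raised, Cpb1 at 2.17 ± 0.55 (4.51-fold) and Cela2a at 3.75 ± 0.042 (13.4-fold), where 0.211% of all probes were, and the median of the list was 0.55. At 1 and 2 months none of 9 measured was raised or lowered, with medians of -0.05 and 0.02. All 10 were well above background in both pools at 4 months, and Cela2a was not well above background in the alcohol pool at 1 and 2 months. The log2 of the summed signal of the list was 15.7 to 16.1 in the alcohol pool and 15.4 to 15.6 in the control pool at 4 months. The other 8 markers, Prss2, Ctrb1, Cel, Pnlip, Cpa1, Amy2, Ela1 and Cela3b, were between 0.25 and 0.81 at 4 months, under 2-fold, while Sult3a1 was at 2.14. The part of acinar RNA in the Sult3a1 result was not tested.

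**Figure D4:**
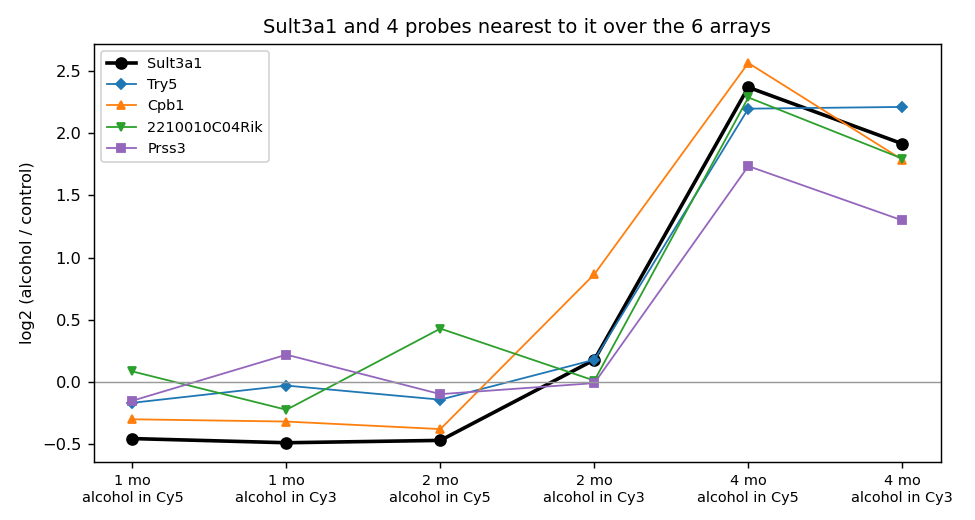
Log2 ratio of alcohol over control (vertical axis) on each of the 6 arrays (horizontal axis) for Sult3a1 (thick black line) and the 4 named probes nearest to it. Sult3a1 is below 0 on the first 3 arrays and at 2.37 and 1.91 on the arrays of 4 months, where the other 4 lie between 1.30 and 2.56.

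Markers of other cells did not pass 2-fold at 4 months with 1 exception. None of 6 Kupffer, 6 cholangiocyte, 6 stellate and 5 endothelial markers was raised or lowered on both arrays at any month. Of all probes 0.0503% to 0.211% were, per month and direction. At such shares a count of 0 says little about lists this short. Of 6 blood markers, Hbb-bt and Hba-a1 were raised at 1 month (3.91-fold and 2.84-fold), where 0.117% of all probes were, and Alas2 was lowered at 4 months (to 0.25 times the control), where 0.167% were. Of 4 kidney markers 2 were measured and of 4 intestine markers 3, and none was called, against the same shares. In pooled tissue, fewer cells of a type and less RNA per cell cannot be told apart.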

How the data were processed

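Two-color Agilent 4x44K arrays of 6 pools were analyzed, and the members and gene lists were chosen with earlier results of these data known. The authors processed the scans with Feature Extraction 9.1.1.1, per the file headers, and deposited signal intensities after background subtraction and dye normalization, the log10 ratio of Cy5 over Cy3, and flags. The deposited value table gives the log10 ratio turned to alcohol over control on every array, as set against the scanner files, where 99.5% of probes on each array lay within 0.02 log2. Its column medians are 0. An aligner or genome build does not apply to these files.

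From these files the log10 ratio was turned to alcohol over control by the dyes in the labels, changed to log2, averaged over spots and then over the dye-swap pair. A call needed 2-fold in 1 direction on both arrays of a month and a probe well above background in at least 1 pool on both. Control spots (1639 of 45018) were left out. Of 41174 probes, 22951 were matched to a symbol by accession. Lists used 1 probe per gene, that of highest mean signal, with at most 3 examples by mean size over the months. All Sult probes were described, and the 5 likest probes were sought for the Sult probe of largest mean size, of which 1 is not reported here and was left out of the gene lists. The gene named Ela2 on the array matches Elane and was kept out of the acinar list. The number of pairs of pools limits the precision. The 3 monthly means were fitted with limma 3.58.1 under R 4.3.3, which was tested on simulated data. Tables and plots were made with pandas 2.3.3, numpy 2.4.6 and matplotlib 3.10.9 under Python 3.11.15. The alternatives were normexp (offset 50) with loess, the deposited table, error weighting, single arrays, other folds and filters, median centring, leaving out months, a linear time scale, an unmoderated test and Aquantile levels.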

Additional observations from a re-analysis of the deposited data

Results flagged for a closer look

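3 Sult probes had both arrays of 1 month on one side of 0 and both arrays of a later month on the other, which is a difference between treatment lengths by sign alone and was not tested within a month. Between 1 and 4 months this held for 3 of 13 Sult probes and 7.64% of all probes, and between 1 and 2 months for 1 of 13 and 9.59%. For Sult3a1 the log2 ratio at 4 months minus that at 1 month was 2.61. For Sult2a2 A_52_P430755 it was 0.68. For Sult1c2 it was -0.43 for 2 months against 1 month and -0.48 for 4 months against 1 month. The slope over the 3 months had a limma adjusted p of 0.556 for Sult3a1, 0.556 for Sult2a2 A_52_P430755 and 0.655 for Sult1c2. Each of these contrasts crosses slides, so slide and treatment length cannot be told apart.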

How the results depend on the processing

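The count of Sult probes raised at 4 months was 1 under each alternative run, and Sult3a1 was the raised probe on each array alone too. Median centring and the deposited table could not change it, since every array median is 0 already and the table holds the same ratios. The other counts past 2-fold on both arrays were 0, as were the limma counts at an adjusted p below 0.05. So low a count says little about stability. The number lowered at 4 months ranged from 0 to 1 when each array of a pair was read alone: on the Cy5 array Sult1b1 A_51_P206551 passed 2-fold. Of 84 monthly ratios recomputed with normexp and loess or with error weighting, 3 moved by more than the SD of their pair and 2 changed sign, all of them uncalled. Among the differences of pool levels from 1 to 4 months, 21 of 28 moved by more than that SD and 11, none of them past 2-fold on both arrays, changed sign with quantile scaling. Examples are the Sult3a1 control pool (-0.42 to 0.04), the Sult1c2 control pool (-0.15 to 0.49) and the Sult2a2 A_51_P281568 alcohol pool (-1.09 to 0.02). Of 84 ratios read from a single array 20 had the other sign than the mean. A slope over 2 months leaves no residual degrees of freedom, so leaving out a month was run for the difference from 0 only. The ratios already pair the 2 pools of a month, and the labels give no replicate numbers for a further block. The precision is limited by the 3 pairs of pools, and A_51_P406796 of Sult4a1 has no usable value at 1 month.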

Other observations

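A further member of the family is on the arrays under another name and so fell outside the rule. The probe A_51_P189733, named 2810007J24Rik on the array, is Sult2a8 in the RefSeq table, and it was chosen after its values were seen. Its monthly log2 ratios were -0.15 ± 0.35, -0.51 ± 0.83 and -0.88 ± 1.13 (SD, n = 2 arrays), so the spread of each pair was larger than its mean. Its limma adjusted p was 0.538 for the difference from 0 and 0.556 for the slope.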
